A study of Mus musculus with 12 samples.

Results

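The genes described here encode voltage-gated and related ion channels of the mouse gut stroma. They are the protein-coding genes whose symbol begins with Kcn, Cacn, Scn plus a digit or Hcn plus a digit, without Kcnj8. The rule found 126 genes among the 32052 genes of the deposited count table, of which 18027 were protein coding. RNA sequencing of total RNA was done on stromal cells that were negative for EPCAM and CD45, sorted as positive or negative for an Rspo3-GFP transgene, from the colon and from the small intestine of C57Bl6 mice aged 8 to 12 weeks. There were 4 groups of 3 libraries each, a GFP-positive and a GFP-negative one from the colon and the same pair from the small intestine. All 4 groups share the strain and the 2 exclusions (EPCAM, CD45), and the labels do not say how the transgene is driven or that each replicate was another animal. P-values therefore measure the spread between these libraries, which may be technical. The design text also names CD31-sorted cells, which are not analysed here.

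Ion channels are membrane pores that open in response to voltage, calcium, stretch or other signals and let potassium, calcium or sodium pass. Potassium channels hold the membrane negative, calcium channels admit the calcium that drives contraction and secretion, and sodium channels carry fast depolarisation in nerve and heart. In the gut wall, smooth muscle, interstitial cells of Cajal and cells expressing the platelet-derived growth factor receptor Pdgfra are electrically coupled and differ in the channels they use, while glia and endothelium use mostly potassium channels that set the resting potential.

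The libraries held 6489835 to 12286054 counts, and the 126 channel genes took 0.101% to 0.230% of them. Rspo3 itself separated the sort gates, at 161, 117 and 119 CPM (counts scaled to a library total of 1000000) in GFP-positive against 2.49, 6.51 and 2.28 CPM in GFP-negative cells of the colon, and 196, 192 and 192 CPM in GFP-positive against 8.78, 13.7 and 4.50 CPM in GFP-negative cells of the small intestine. The gates also differed in markers of several cell types. The summed level of 9 lymphatic endothelial markers was 18840 to 22010 CPM in GFP-positive and 501 to 693 CPM in GFP-negative cells of the colon, and 4807 to 16100 CPM in GFP-positive and 329.5 to 857 CPM in GFP-negative cells of the small intestine. One library stood apart: replicate 3 of the GFP-negative small intestine held 1137 CPM of 10 leukocyte markers, against 16.8 and 10.7 CPM in the other 2 libraries of its group. In bulk samples such as these, fewer cells of a type and less RNA per cell cannot be told apart.

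Levels of channel genes were compared per transcript length, as TPM, a transcript abundance corrected for length, rescaled to the protein-coding genes (n = 3 libraries per group, ± SD). The genes led very unequally: 2 had a mean above 100 TPM over the 12 libraries, 1 of them Kcnn3, and 15 had a mean above 10 TPM, while 15 had fewer than 10 counts in all 12 libraries together. Among the 4 highest were Kcnn3, Scn7a and Kcnk5 in the GFP-positive small intestine, and Scn7a, Kcnk2 and Kcnn3 in GFP-negative cells of the same tissue. In the colon the 2 highest included Kcnn3 in GFP-positive cells and Scn7a in GFP-negative cells. Of 10 classes, the calcium- and sodium-activated potassium channels summed to 199 ± 16.9 TPM in GFP-positive and 93.9 ± 16.98 TPM in GFP-negative cells of the colon, and to 250.5 ± 15.1 and 112 ± 7.41 TPM in GFP-positive and GFP-negative cells of the small intestine. No GFP-positive library overlapped the GFP-negative ones of its tissue.

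The opposite order held for the pore-forming voltage-gated potassium (Kv) channels, which summed to 24.1 ± 3.14 TPM in GFP-positive and 69.98 ± 5.72 TPM in GFP-negative cells of the colon, and to 52.3 ± 6.66 and 190.5 ± 79.1 TPM in GFP-positive and GFP-negative cells of the small intestine. Pore-forming calcium (Cav) channels summed to 18.1 ± 2.7 and 86.9 ± 14.4 TPM in GFP-positive and GFP-negative cells of the colon, and to 30.7 ± 9.69 and 105 ± 33.3 TPM in those of the small intestine. Again the libraries of the gates did not overlap within a tissue. The hyperpolarisation-activated (HCN) channels were the least abundant class, at 0.765 ± 0.2798 and 2.41 ± 0.1096 TPM in GFP-positive and GFP-negative cells of the colon and 0.922 ± 1.16 and 6.97 ± 2.54 TPM in those of the small intestine. Pore-forming sodium (Nav) channels overlapped between the gates in the small intestine, at 128 ± 44.99 TPM in GFP-positive and 153 ± 68.7 TPM in GFP-negative cells. No test was run on these sums, in which 1 gene can hold most of the level: Scn7a held 85.7% of the Nav pore level over the 12 libraries and Kcnn3 72.9% of the calcium- and sodium-activated level. By group Kcnn3 held 86.5% and 52.5% of the latter in GFP-positive and GFP-negative cells of the colon, and 83.5% and 41.9% in those of the small intestine. The higher sum of that class rested on Kcnn3: over its 8 genes tested on counts, the median log2 fold change, GFP-positive over GFP-negative, was -1.42 in the colon and -0.99 in the small intestine.

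**Figure D1:**
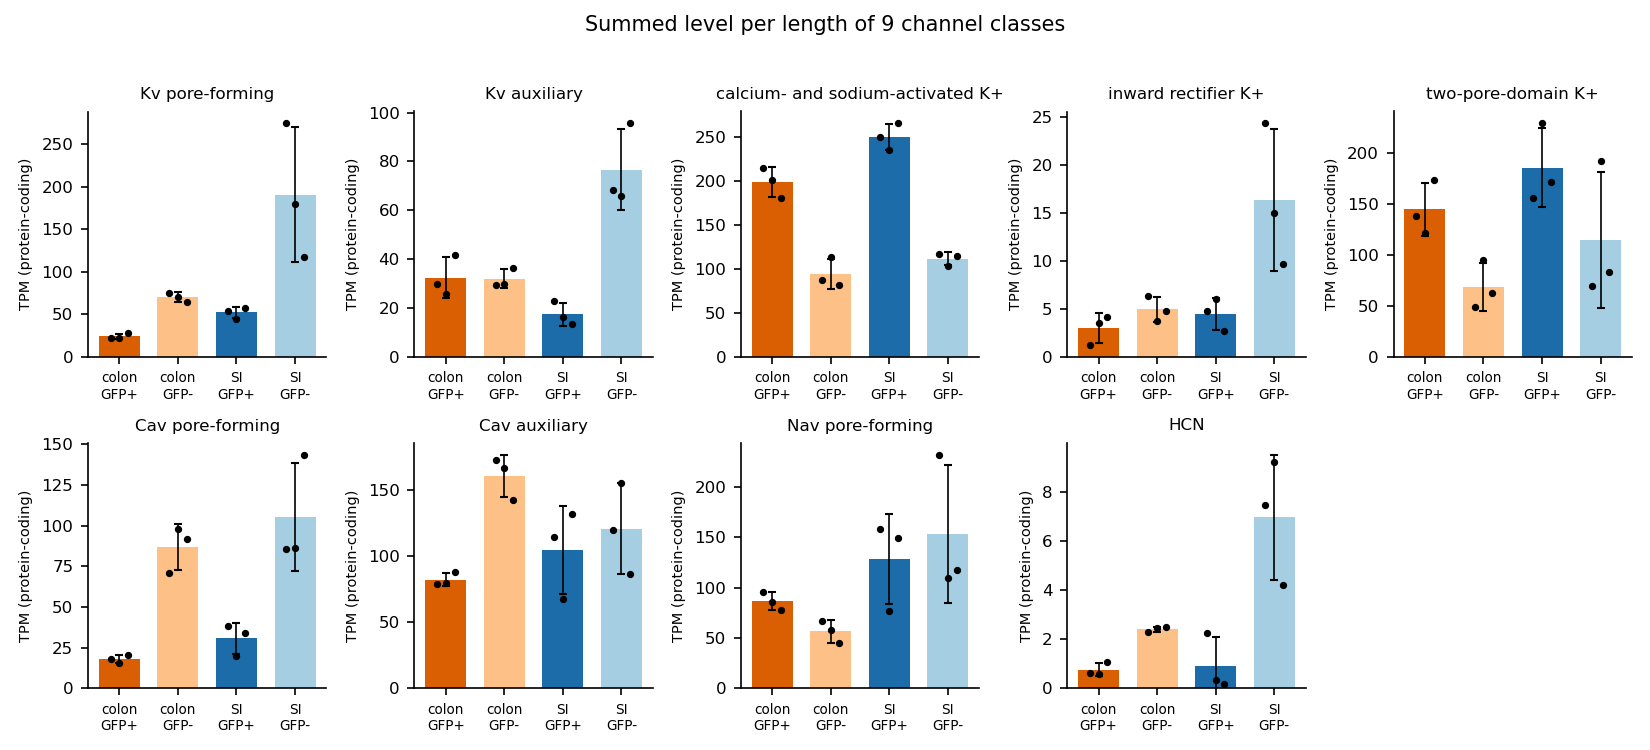
Summed level of 9 of the 10 channel classes, in TPM rescaled to protein-coding genes (vertical axis, linear from 0), for colon and small intestine (SI) by GFP gate; bars are means, error bars SD and points the 3 libraries. The sum of the calcium- and sodium-activated potassium channels, of which Kcnn3 held 72.9% over the 12 libraries, sits higher in GFP-positive cells of both tissues. The sums of the Kv and Cav pore classes sit lower.

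Differences were tested on counts with edgeR's quasi-likelihood test, and a gene is said to have risen or fallen only at a Benjamini-Hochberg adjusted p under 0.05 over all 16757 genes tested. Of the 126 channel genes 70 passed the filter on low counts and 56 did not. A gene that passed through the group in which it is high is bound to differ, so the counts and medians that follow describe the tested channel genes and are no support for a difference of the class. In the colon 5 of 70 rose and 16 fell in GFP-positive relative to GFP-negative cells, while 8.69% of all genes tested were called in either direction (4.62% higher, 4.06% lower). In the small intestine 6 rose and 19 fell, while 10.9% of all genes were called (4.24% higher, 6.63% lower). The channel genes are all protein coding, and of the protein-coding genes tested 10.1% were called in the colon and 12.7% in the small intestine. By the libraries alone, 12 of the 70 had every GFP-positive value above every GFP-negative value in the colon and 31 had every one below, while 35.6% of all genes did not overlap. For the small intestine these numbers were 7 and 27, while 21.9% of all genes did not overlap. Of 13859 protein-coding genes tested, 2665 lay wholly above and 2683 wholly below in the colon, and 1469 and 1816 in the small intestine. The median log2 fold change of the 70 was -1.42 in the colon and -1.11 in the small intestine, beside -0.03 in each tissue over all genes. Each median was the same with genes at 0 in 1 group set to their bound. This could not have moved it, because the 3 such genes in the colon and 2 in the small intestine stayed on their side of the median. On the authors' deposited log2(TPM + 1) scale, tested with limma, the colon split was 5 higher and 8 lower. The number that fell was 10 in the colon without GFP-positive replicate 2 and 11 in the small intestine without GFP-positive replicate 2, the lowest of the fits that left out 1 library. Without GFP-negative replicate 3, the library with the leukocyte markers, 6 rose and 18 fell.

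The genes that rose in GFP-positive cells of both tissues numbered 4, with Kcnn3, Kcnk5 and Scn3b among them, which is 80.0% of the genes that rose in the colon and 66.7% of those that rose in the small intestine. Those that fell in both numbered 10, with Cacna1c, Cacna1g, Cacna1h, Kcna1, Kcna2, Kcna6, Kcnd3, Kcnh2 and Kcnmb1 among them, which is 62.5% of the genes that fell in the colon and 52.6% of those that fell in the small intestine. None of the 70 rose in 1 tissue and fell in the other. The share of called genes shared by the tissues was not counted over all genes, so these percentages do not set channel genes apart from others. The 2 tissues share no libraries in these comparisons, but replicate 3 of both carries the same sample number in the deposited names, and the labels do not say what that number stands for. Same-numbered gates share a sample name, and with the replicate number as a block 8 rose and 17 fell in the small intestine: Kcng1 (adjusted p = 0.037) and Scn3a (0.0477) were added among those that rose. Of the 48 calls of the genes described here, over all 5 comparisons, 28 were lost with limma on the log2(TPM + 1) scale, which changes the unit and the test together. In the colon these were the calls of Cacna1c, Cacnb3, Kcna1, Kcna2, Kcna6, Kcnh2, Kcnk3 and Kcnma1, and in the small intestine those of Cacna1c, Cacna1e, Cacna1g, Hcn2, Hcn4, Kcna5, Kcnab2, Kcnd3, Kcng2, Kcnh2, Kcnmb1, Kcnt2, Scn2b, Scn3b and Scn4b. With the compared groups fitted alone 9 were lost, of which 8 were in the small intestine, at adjusted p of 0.0527 for Cacna1c, 0.0857 for Cacna1g, 0.0939 for Kcnab2, 0.162 for Kcnd3, 0.0683 for Kcnh2, 0.208 for Kcnmb1, 0.0657 for Kcnt1 and 0.104 for Scn2b.

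**Figure D2:**
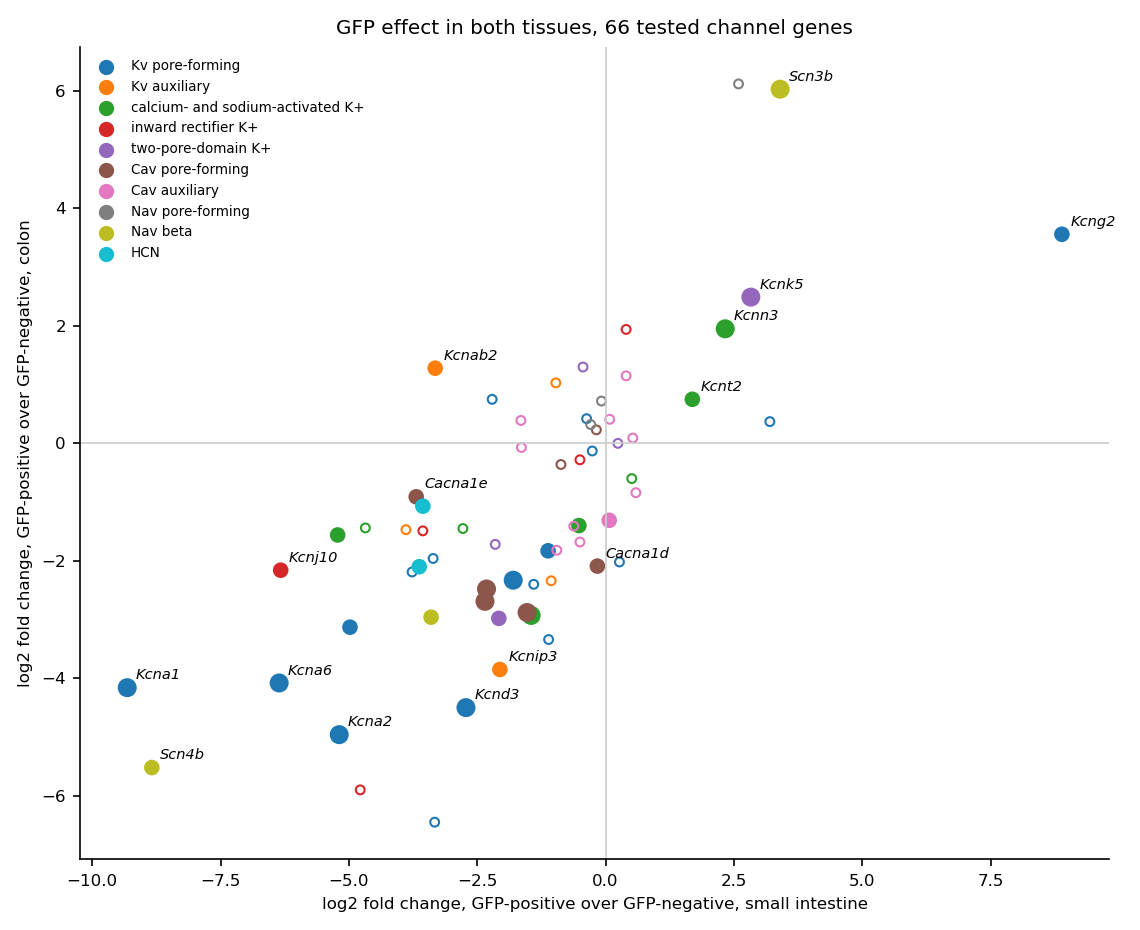
Log2 fold change, GFP-positive over GFP-negative, in the small intestine (horizontal axis) against the colon (vertical axis) for 66 of the 70 tested channel genes, coloured by class; large filled points were called in both tissues, small filled points in 1 and open points in neither. Points at the upper right and lower left moved the same way in both tissues, with Kcnn3, Kcnk5 and Scn3b at the upper right.

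The sequence before the start site is shown for a pair of genes that rose in both tissues and a pair that fell in both, to set their promoters side by side. RefSeq (GRCm38.p6) gave a promoter window for 91 of the 126 genes and none for 35. Each line holds the 250 bases upstream of the annotated start, read along the gene's strand, and capitals mark the GC box GGGCGG, the site of Sp-family factors, wherever it reads on the printed strand.
Kcnn3, chr3:89519914-89520163, plus strand: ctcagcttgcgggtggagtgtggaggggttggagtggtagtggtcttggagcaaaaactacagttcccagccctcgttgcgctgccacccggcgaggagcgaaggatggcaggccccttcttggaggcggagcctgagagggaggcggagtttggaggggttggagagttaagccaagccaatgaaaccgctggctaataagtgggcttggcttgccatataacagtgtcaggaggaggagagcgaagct
Kcnk5, chr14:20181783-20182032, minus strand: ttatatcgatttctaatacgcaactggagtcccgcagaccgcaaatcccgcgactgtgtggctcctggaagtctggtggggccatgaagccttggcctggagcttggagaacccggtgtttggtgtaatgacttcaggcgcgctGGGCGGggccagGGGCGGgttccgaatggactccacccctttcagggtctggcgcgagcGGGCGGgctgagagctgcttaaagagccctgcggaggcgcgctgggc
Kcnmb1, chr11:33962763-33963012, plus strand: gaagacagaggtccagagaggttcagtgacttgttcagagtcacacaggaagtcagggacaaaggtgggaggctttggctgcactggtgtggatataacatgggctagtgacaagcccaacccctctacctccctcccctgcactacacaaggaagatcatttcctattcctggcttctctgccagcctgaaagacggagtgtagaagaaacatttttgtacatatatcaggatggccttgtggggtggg
Kcna6, chr6:126740675-126740924, minus strand: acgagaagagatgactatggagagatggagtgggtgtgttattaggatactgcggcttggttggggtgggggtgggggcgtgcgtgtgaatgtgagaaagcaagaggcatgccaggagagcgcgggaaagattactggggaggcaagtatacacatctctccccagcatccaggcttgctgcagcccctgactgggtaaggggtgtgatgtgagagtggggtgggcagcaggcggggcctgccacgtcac
Kcnk5 carries 3 GC boxes in this window, and the other printed sequences carry none on either strand. Among genes that fell in both tissues, 2 of 8 windows held a GC box, in Cacna1c and Kcnh2, which are not printed. Among genes that rose in both, 1 of 2 windows did, that of Kcnk5. The printed sequences therefore do not stand for the genes that rose or fell, and no difference between these sets was tested. Over both strands the GC box stood in 45.2% of the 126 windows of channel genes (some genes have several windows, some none) and in 32.7% of the 32851 RefSeq windows of this length, and median GC content was 58.8% and 52.4%. The CArG box, to which serum response factor binds, was in 0 of the 126 windows of channel genes and in 1.47% of all windows. The search for the GC box was chosen after the data were seen, and a match of letters is a description of the window and not a binding site.

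Among the pore-forming Kv channels, which open on depolarisation and repolarise the membrane, 20 of 37 genes were tested. In the colon 0 rose and 7 fell, and in the small intestine 1 rose and 7 fell. For these and the later counts by class or marker list, the share of all genes called was 8.69% in the colon and 10.9% in the small intestine. Of protein-coding genes it was 10.1% and 12.7%. The colon count of 0 is from edgeR, which gave 12 of the 20 an unadjusted p under 0.05 in either direction, while DESeq2's Wald test, the fit without a filter and the fit of the 2 colon groups alone each called 1 higher, Kcng2.

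The Shaker-family genes Kcna1, Kcna2 and Kcna6, whose channels set excitability in axons, were highest in GFP-negative cells of the small intestine. Kcna1 (ENSMUSG00000047976, chr6:126640397-126646384, minus strand of GRCm38) measured 0.166, 0.0985 and 0 CPM in GFP-positive and 107, 58.9 and 46.95 CPM in GFP-negative cells of the small intestine. In the colon it measured 0.4395, 0 and 1.03 CPM in GFP-positive and 13.9, 10.3 and 3.67 CPM in GFP-negative cells. The gates did not overlap in either tissue, and the log2 fold change was -4.16 (SE 0.75, adjusted p = 0.00466) in the colon and -9.32 (SE 0.92, adjusted p = 0.000249) in the small intestine. Kcna2 (ENSMUSG00000040724, chr3:107101146-107115005, plus strand) followed the same order, at 0.989, 0 and 1.26 CPM in GFP-positive against 46.1, 16.3 and 11.3 CPM in GFP-negative cells of the colon. Kcna2 of the small intestine lay at 2.58, 1.58 and 6.62 CPM in the GFP-positive and 228, 89.8 and 71.7 CPM in the GFP-negative gate, the highest value of any Kv gene in a single library being the 228 CPM of replicate 1. Its log2 fold change was -4.96 (SE 0.95, adjusted p = 0.00867) in the colon and -5.19 (SE 0.86, adjusted p = 0.00381) in the small intestine. Kcna6 (ENSMUSG00000038077, chr6:126708329-126740674, minus strand) had a log2 fold change of -4.08 (SE 1.09, adjusted p = 0.0411) in the colon and -6.36 (SE 1.13, adjusted p = 0.00484) in the small intestine. The libraries held 0.659, 0 and 0.571 CPM in GFP-positive against 13.5, 6.28 and 2.53 CPM in GFP-negative cells of the colon, and 0, 1.18 and 0.118 CPM in GFP-positive against 57.2, 32.6 and 19.5 CPM in GFP-negative cells of the small intestine. The colon call of Kcna6 was lost without GFP-positive replicate 1, 2 or 3 or GFP-negative replicate 1 or 2 (highest adjusted p 0.143), with the replicate block (adjusted p = 0.0615) and with no filter on low counts (adjusted p = 0.157). Kcna5, the Kv1 family member known from atrium and vascular muscle, averaged 0.381 ± 0.374 CPM in GFP-positive and 12.97 ± 12.5 CPM in GFP-negative cells of the small intestine and fell there, with a log2 fold change of -4.98 (SE 1.11, adjusted p = 0.0117). That call was lost without GFP-positive replicate 2 or GFP-negative replicate 1 (highest adjusted p 0.072).

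Markers of enteric glia moved with these genes. The summed level of 10 glial markers, among them Sox10 and S100b, was 9.12 to 35.9 CPM in GFP-positive and 49.3 to 129 CPM in GFP-negative cells of the colon, and 2.36 to 7.096 CPM in GFP-positive and 216 to 535 CPM in GFP-negative cells of the small intestine. Of the 9 tested glial markers 3 fell in the colon and 8 in the small intestine, and 2 of the 10, Foxd3 among them, were at 0 in all GFP-positive libraries of the small intestine. The sum of 10 neuronal markers, among them Elavl4 and Uchl1, was 59.8 to 72.8 CPM in GFP-positive and 37.8 to 45.3 CPM in GFP-negative cells of the colon, and 5.22 to 41.6 and 32.3 to 229 CPM in GFP-positive and GFP-negative cells of the small intestine. In the colon Stmn2 alone held 93.0% of the neuronal sum in GFP-positive and 49.1% in GFP-negative cells. The other neuronal markers tested had negative log2 fold changes there, and 1 of the 8 fell. The median over the 8 was -3.03 in the colon and -2.43 in the small intestine. In the GFP-positive colon 2 markers of each list were at 0, among them Sox2 of the glial and Elavl4 of the neuronal list. Replicate 1 of the GFP-negative small intestine had the highest glial sum, the highest neuronal sum and the highest Kcna1, Kcna2 and Kcna6 levels. In replicates 1 to 3 of that group the glial sum was 535, 216 and 248 CPM and the neuronal sum 229, 61.0 and 32.3 CPM. The order of the 3 genes over these replicates was that of the neuronal sum. The part of glial and neuronal RNA in these results was not tested.

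Kcnd3 and Kcnh2 were called lower in GFP-positive cells of both tissues. Kcnd3 (ENSMUSG00000040896, chr3:105452330-105674002, plus strand), the A-type channel Kv4.3 of heart and smooth muscle, measured 1.21, 0.528 and 1.26 CPM in GFP-positive against 21.3, 27.1 and 20.9 CPM in GFP-negative cells of the colon. Small-intestinal libraries held 0.166, 0.788 and 0.472 CPM in GFP-positive against 5.05, 2.19 and 2.25 CPM in GFP-negative cells. The 3 GFP-negative libraries of the colon thus stood above the other 9 libraries, and the log2 fold change was -4.50 (SE 0.56, adjusted p = 0.000458) in the colon and -2.72 (SE 0.56, adjusted p = 0.00774) in the small intestine. Kcnh2 (ENSMUSG00000038319, chr5:24319589-24351604, minus strand), the hERG channel of late repolarisation, measured 3.74, 3.697 and 3.54 CPM in GFP-positive against 17.2, 20.8 and 17.4 CPM in GFP-negative cells of the colon. It lay at 6.16, 3.75 and 5.43 CPM in GFP-positive and 12.7, 29.98 and 10.6 CPM in GFP-negative cells of the small intestine. The fold changes were -2.33 (SE 0.39, adjusted p = 0.00242) in the colon and -1.80 (SE 0.38, adjusted p = 0.00861) in the small intestine. The calls of the small intestine were lost with its 2 groups fitted alone, as given above, and with limma (adjusted p = 0.631 for Kcnd3 and 0.327 for Kcnh2), and limma also lost the colon call of Kcnh2 (adjusted p = 0.123). Kcns3, a subunit that is silent alone and modifies Kv2 channels, averaged 4.77 ± 1.84 CPM in GFP-positive and 16.98 ± 3.44 CPM in GFP-negative cells of the colon and fell, with a log2 fold change of -1.83 (SE 0.35, adjusted p = 0.00541).

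Kcng2, another silent modifier of Kv2 channels, was the Kv gene that rose. It measured 4.83, 13.9 and 1.77 CPM in GFP-positive small-intestinal cells and had no count in the 3 GFP-negative libraries there. Against a floor of 3 counts over the GFP-negative group it was at least 56.1-fold higher (adjusted p = 0.00596), a bound that covers counting error only. In the colon the libraries stood apart in the same direction, at 2.64, 4.75 and 5.71 CPM in GFP-positive and 0.8801, 0.228 and 0 CPM in GFP-negative cells, without passing the test (log2 fold change 3.56, SE 1.09, adjusted p = 0.0761).

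Kv auxiliary subunits, which bind the pore subunits and shift their gating or their traffic to the membrane, had 5 of 12 genes tested. In each tissue 0 rose and 1 fell. The counts of 0 are from edgeR, which gave 1 gene in the colon and 3 in the small intestine an unadjusted p under 0.05 in either direction, and DESeq2's Wald test also called 0 higher in each tissue. Kcne4, a single-span subunit that damps several Kv channels, led the class over the 12 libraries, at 19.3 ± 3.83 TPM in GFP-positive and 10.4 ± 1.12 TPM in GFP-negative cells of the colon, and at 4.95 ± 2.15 and 12.1 ± 8.26 TPM in GFP-positive and GFP-negative cells of the small intestine. Neither GFP comparison of Kcne4 passed the test (adjusted p = 0.273 in the colon and 0.26 in the small intestine). Kcnip3, a calcium-binding partner of Kv4 channels that also acts as a transcriptional repressor, measured 0.4395, 0 and 0.914 CPM in GFP-positive against 9.83, 5.03 and 5.7 CPM in GFP-negative cells of the colon and fell there, with a log2 fold change of -3.85 (SE 0.80, adjusted p = 0.00889). Kcnab2, a cytosolic beta subunit of Kv1 channels, measured 3.08, 1.87 and 0.591 CPM in GFP-positive and 6.97, 6.06 and 43.6 CPM in GFP-negative cells of the small intestine. Its high value was that of GFP-negative replicate 3, the library with the leukocyte markers, and its fall (log2 fold change -3.32, SE 0.81, adjusted p = 0.0202) was not called without that library (adjusted p = 0.145), without GFP-positive replicate 2 or 3, or with the replicate block (adjusted p = 0.135). With the same block Kcne3, a subunit of the Kcnq1 channel in epithelium, and Kcnq1 itself were called lower in GFP-positive cells (adjusted p = 0.0425 and 0.0487). Epithelial markers moved along with them between the gates: the sum of 10 was 12.6 to 18.1 CPM in GFP-positive and 284 to 882 CPM in GFP-negative cells of the small intestine. In replicates 1 to 3 of the GFP-negative gate the sum was 583, 284.5 and 882 CPM. Kcnq1 had 52, 34 and 15 counts there, or 35.9, 17.3 and 1.53 TPM, lowest where the sum was highest. The counts spread less than the TPM values. Kcne3 had 76, 89 and 22 counts, or 22.9, 19.6 and 24.35 TPM. The part of epithelial RNA was not tested.

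Calcium- and sodium-activated potassium channels had 8 of 11 genes tested. In the colon 1 rose and 2 fell, and in the small intestine 2 rose and 2 fell. Kcnn3 (ENSMUSG00000000794, chr3:89520164-89675132, plus strand) encodes the small-conductance channel SK3, known in the gut as the channel through which Pdgfra-expressing interstitial cells relay purinergic inhibition to muscle. It measured 467, 480.5 and 424 CPM in GFP-positive against 115, 139 and 99.9 CPM in GFP-negative cells of the colon. Values of the small intestine were 567, 652 and 574 CPM in GFP-positive and 112, 162 and 81.04 CPM in GFP-negative cells. Every GFP-positive library lay above every GFP-negative one, across tissues as well. The log2 fold change was 1.95 (SE 0.24, adjusted p = 0.000458) in the colon and 2.33 (SE 0.25, adjusted p = 0.000249) in the small intestine, and the call held in every fit without 1 library (highest adjusted p 0.00412 in the colon and 0.00134 in the small intestine). Per length Kcnn3 stood at 172 ± 13.03 TPM in GFP-positive and 49.2 ± 11.2 TPM in GFP-negative cells of the colon, and at 209 ± 5.93 and 46.8 ± 14.3 TPM in GFP-positive and GFP-negative cells of the small intestine. Markers of fibroblasts moved with it in the small intestine, where 10 of them summed to 39610 to 60620 CPM in GFP-positive and 7617 to 22280 CPM in GFP-negative cells and 9 of the 10 rose. In the colon the sums were 19810 to 24420 CPM in GFP-positive and 24140 to 26660 CPM in GFP-negative cells, and 3 genes held 72.4% and 86.4% of them. Counted by gene, 2 of the 10 rose in the colon, with a median log2 fold change of 0.32, and 5 had every GFP-positive library above every GFP-negative one while 2 had every one below. The 10 markers of subepithelial telocytes, Pdgfra among them, summed to 561 to 598 CPM in GFP-positive and 2231 to 2378 CPM in GFP-negative cells of the colon, where all 9 tested fell. In the small intestine they summed to 758 to 1548 CPM in GFP-positive and 653 to 1315 CPM in GFP-negative cells, which overlapped, and 1 of the 9 fell. Pdgfra, which held most of that sum, averaged 924 ± 331 CPM in GFP-positive and 607 ± 290.5 CPM in GFP-negative cells there and did not pass the test (log2 fold change 0.61, SE 0.32, adjusted p = 0.274). The part of these cell types in the Kcnn3 result was not tested.

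The sodium-activated channel gene Kcnt2 measured 22.3, 16.6 and 21.02 CPM in GFP-positive and 5.05, 9.51 and 3.86 CPM in GFP-negative cells of the small intestine and rose there (log2 fold change 1.69, SE 0.37, adjusted p = 0.0105). In the colon it lay at 8.71 to 18.9 CPM in GFP-positive and 7.42 to 8.61 CPM in GFP-negative cells and did not pass (adjusted p = 0.285). Its relative Kcnt1 fell in the small intestine (log2 fold change -5.22, SE 1.39, adjusted p = 0.0289), with 0 to 0.499 CPM in GFP-positive and 1.29 to 14.4 CPM in GFP-negative libraries. The large-conductance (BK) channel relaxes smooth muscle, and its beta subunit Kcnmb1 (ENSMUSG00000020155, chr11:33963013-33973641, plus strand) measured 1.98, 2.77 and 2.74 CPM in GFP-positive against 18.8, 17.8 and 20.8 CPM in GFP-negative cells of the colon. Its values in the small intestine were 3.49, 2.76 and 6.97 CPM in GFP-positive and 10.8, 18.8 and 6.27 CPM in GFP-negative cells, and the gates overlapped. The log2 fold change was -2.93 (SE 0.46, adjusted p = 0.00159) in the colon and -1.45 (SE 0.43, adjusted p = 0.0487) in the small intestine, where the call was lost with the replicate block (adjusted p = 0.135). The BK pore gene Kcnma1 averaged 12.1 ± 2.79 CPM in GFP-positive and 32.05 ± 9.14 CPM in GFP-negative cells of the colon and fell by 1.40 on the log2 scale (adjusted p = 0.0412), a call lost in each of the 6 fits without 1 library and with the replicate block (adjusted p = 0.0624). The call of Kcnt1 was lost without GFP-positive replicate 2 or 3 or GFP-negative replicate 1, and that of Kcnmb1 in the small intestine without GFP-positive replicate 1 or 2 or GFP-negative replicate 1 or 2.

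Smooth muscle markers moved with Kcnmb1 and the other genes known from muscle. Summed over 11 markers, among them Myh11 and Acta2, they measured 815 to 941 CPM in GFP-positive and 3726 to 4761 CPM in GFP-negative cells of the colon, and 1306 to 1498 and 1957 to 5192 CPM in GFP-positive and GFP-negative cells of the small intestine. In the colon 9 of 11 fell and in the small intestine 8 of 11, and none was at 0 in a group. The 10 pericyte markers, which include Kcnj8, summed to 220.0 to 236 CPM in GFP-positive and 499 to 827 CPM in GFP-negative cells of the colon. In the small intestine the sums overlapped, at 484 to 668 and 569.5 to 1989 CPM in GFP-positive and GFP-negative cells. Of the 9 tested, 4 fell in the colon and 5 in the small intestine, and none rose. Their log2 fold changes ran from -3.63 to 0.68 in the colon and from -7.74 to 1.96 in the small intestine. The part of either cell type in the channel results was not tested.

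Inward rectifiers, which pass potassium best near the resting potential, had 5 of 12 genes tested. In the colon none was called by edgeR, with 2 at an unadjusted p under 0.05, and DESeq2's Wald test called 1 lower, Kcnj12, which had no count in GFP-positive cells. In the small intestine 0 rose and 1 fell. That gene was Kcnj10 (ENSMUSG00000044708, chr1:172341210-172374085, plus strand), the Kir4.1 channel by which glia take up potassium. It measured 0.0832, 0 and 0.472 CPM in GFP-positive against 21.3, 8.88 and 14.8 CPM in GFP-negative cells of the small intestine, with no overlap and a log2 fold change of -6.33 (SE 1.13, adjusted p = 0.00353). In the colon it measured 0.4395, 0 and 1.14 CPM in GFP-positive and 3.96, 1.03 and 2.41 CPM in GFP-negative cells, which overlapped (log2 fold change -2.16, SE 0.96, adjusted p = 0.237). The class was low in all groups, at 2.97 ± 1.56 TPM in GFP-positive and 4.95 ± 1.31 TPM in GFP-negative cells of the colon, and 4.49 ± 1.69 and 16.4 ± 7.42 TPM in those of the small intestine.

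The tandem-pore (K2P) channels carry background potassium current, and 5 of 12 genes were tested. In the colon 1 rose and 1 fell, and in the small intestine 1 rose and 0 fell. Kcnk5 (ENSMUSG00000023243, chr14:20140057-20181809, minus strand), the alkaline-activated channel TASK-2, rose in both tissues. It measured 66.7, 74.3 and 61.7 CPM in GFP-positive against 15.2, 11.99 and 8.99 CPM in GFP-negative cells of the colon. The small intestine gave 128, 238 and 48.2 CPM in GFP-positive against 20.6, 19.4 and 18.2 CPM in GFP-negative cells. The GFP-positive libraries of the small intestine spread widely but none overlapped the GFP-negative ones, and the log2 fold change was 2.49 (SE 0.44, adjusted p = 0.00424) in the colon and 2.83 (SE 0.44, adjusted p = 0.002) in the small intestine. Within the GFP-positive small intestine Kcnk5 followed the order of the lymphatic endothelial sum, which was 12130, 16100 and 4807 CPM in replicates 1 to 3. The sums of pan-endothelial markers (1521, 2405 and 635 CPM) and of blood endothelial markers (642, 752 and 278 CPM, 90.1% of it Kdr) had this order too.

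Kcnk2, the stretch- and lipid-sensitive channel TREK-1, led the class over the 12 libraries, at 83.6 ± 28.4 TPM in GFP-positive and 41.1 ± 23.5 TPM in GFP-negative cells of the colon, and 63.2 ± 45.2 and 63.4 ± 46.99 TPM in those of the small intestine. Its counts were 49.1, 44.8 and 59.5 CPM in GFP-positive and 21.3, 24.9 and 16.2 CPM in GFP-negative cells of the colon, without overlap, and the log2 fold change of 1.30 (SE 0.42, adjusted p = 0.0878) did not pass the test. Kcnk3, the acid-inhibited channel TASK-1, fell in the colon (log2 fold change -2.98, SE 0.78, adjusted p = 0.0321), at 1.099, 0.132 and 1.26 CPM in GFP-positive against 8.95, 5.48 and 5.83 CPM in GFP-negative cells. That call was lost in each of the 6 fits without 1 library. Kcnk2 and Kcnk5 were both called higher in the colon by DESeq2's Wald test. In the small intestine Kcnk3 was called lower with the replicate block (adjusted p = 0.0403, against 0.0817 without it) and by DESeq2's Wald test.

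Pore-forming Cav channels had 7 of 10 genes tested. In the colon 0 rose and 4 fell, and in the small intestine 0 rose and 4 fell. By edgeR 4 genes had an unadjusted p under 0.05 in each tissue, and DESeq2's Wald test also called 0 higher and 4 lower in each. The T-type genes Cacna1g and Cacna1h, whose channels open at low voltage and drive pacemaking, and the L-type gene Cacna1c, whose channel admits the calcium for muscle contraction, fell in both tissues. Cacna1h (ENSMUSG00000024112, chr17:25374285-25433783, minus strand) measured 9.45, 2.51 and 6.86 CPM in GFP-positive against 46.4, 42.4 and 33.9 CPM in GFP-negative cells of the colon. The corresponding levels in the small intestine were 10.4, 8.38 and 13.7 CPM in GFP-positive against 44.1, 41.05 and 80.6 CPM in GFP-negative cells. Neither tissue had overlap, and the log2 fold change was -2.69 (SE 0.42, adjusted p = 0.00159) in the colon and -2.35 (SE 0.41, adjusted p = 0.00307) in the small intestine. Cacna1g (ENSMUSG00000020866, chr11:94408391-94474198, minus strand) measured 4.18, 5.02 and 8.57 CPM in GFP-positive against 36.5, 59.2 and 35.5 CPM in GFP-negative cells of the colon. Its levels in the small intestine were 10.2, 6.31 and 19.5 CPM in GFP-positive and 32.8, 44.5 and 25.9 CPM in GFP-negative cells, again without overlap. The changes were -2.88 (SE 0.43, adjusted p = 0.00124) in the colon and -1.53 (SE 0.41, adjusted p = 0.0292) in the small intestine, the second being lost with the replicate block (adjusted p = 0.0673) and without GFP-positive replicate 1 or 2 or GFP-negative replicate 1 or 2.

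Cacna1c (ENSMUSG00000051331, chr6:118587240-119196418, minus strand) measured 7.69, 3.04 and 3.66 CPM in GFP-positive against 23.6, 31.1 and 26.3 CPM in GFP-negative cells of the colon, and 12.4, 5.62 and 4.49 CPM in GFP-positive against 53.7, 45.5 and 13.8 CPM in GFP-negative cells of the small intestine. The log2 fold change was -2.48 (SE 0.54, adjusted p = 0.0125) in the colon and -2.32 (SE 0.53, adjusted p = 0.0145) in the small intestine. The colon call was lost without GFP-positive replicate 2 or 3 (highest adjusted p 0.0705), and the call in the small intestine without GFP-positive replicate 2 or 3 (highest adjusted p 0.0694). Cacna1e, the R-type channel of neurons and endocrine cells, fell in the small intestine (log2 fold change -3.69, SE 0.83, adjusted p = 0.0128), at 1.91, 1.28 and 0.472 CPM in GFP-positive and 12.02, 4.07 and 32.5 CPM in GFP-negative cells. Its highest value was again that of GFP-negative replicate 3, without which the adjusted p was 0.0699, and the call was also lost without GFP-positive replicate 2.

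Cacna1d (ENSMUSG00000015968, chr14:30039939-30491455, minus strand), the L-type gene for channels that open at more negative voltages, separated the gates in the colon. It measured 13.3, 16.2 and 20.5 CPM in GFP-positive against 57.5, 89.2 and 66.9 CPM in GFP-negative cells of the colon. The libraries of the small intestine overlapped, at 35.9, 27.4 and 41.2 CPM in GFP-positive and 30.8, 53.7 and 32.3 CPM in GFP-negative cells. The log2 fold change was -2.09 (SE 0.28, adjusted p = 0.000621) in the colon and -0.16 (SE 0.27, adjusted p = 0.79) in the small intestine. The difference between these effects, tested as an interaction, was -1.93 (SE 0.38, adjusted p = 0.0255), and its adjusted p was 0.0521 with the replicate block and 0.189 with limma. It was lost without GFP-positive small intestine replicate 1 or 3 or GFP-positive colon replicate 1 or 2 or GFP-negative small intestine replicate 1 or GFP-negative colon replicate 2 or 3. The exons of Cacna1d overlap those of Chdh on the opposite strand, which averaged 9.89 CPM over the 12 libraries, beside 40.4 CPM for Cacna1d, and whether the counting used strand is not given in the sources used here.

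Cav auxiliary subunits, which set the surface density and gating of the pores, had 10 of 14 genes tested. In the colon 0 rose and 1 fell, and in the small intestine none was called by edgeR or by DESeq2's Wald test, with 1 at an unadjusted p under 0.05 by edgeR. Cacna2d1, the alpha2delta subunit that binds gabapentin, led over the 12 libraries, at 38.4 ± 6.28 TPM in GFP-positive and 39.5 ± 4.85 TPM in GFP-negative cells of the colon, and at 33.8 ± 10.3 and 30.8 ± 5.496 TPM in those of the small intestine. Its libraries overlapped between gates in both tissues, with log2 fold changes of 0.09 (SE 0.23, adjusted p = 0.896) in the colon and 0.53 (SE 0.23, adjusted p = 0.191) in the small intestine. Cacnb3, a cytosolic beta subunit, fell in the colon (log2 fold change -1.31, SE 0.32, adjusted p = 0.0229), at 19.7, 26.9 and 22.97 CPM in GFP-positive against 53.2, 65.1 and 53.8 CPM in GFP-negative cells, a call lost in each of the 6 fits without 1 library.

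**Figure D3:**
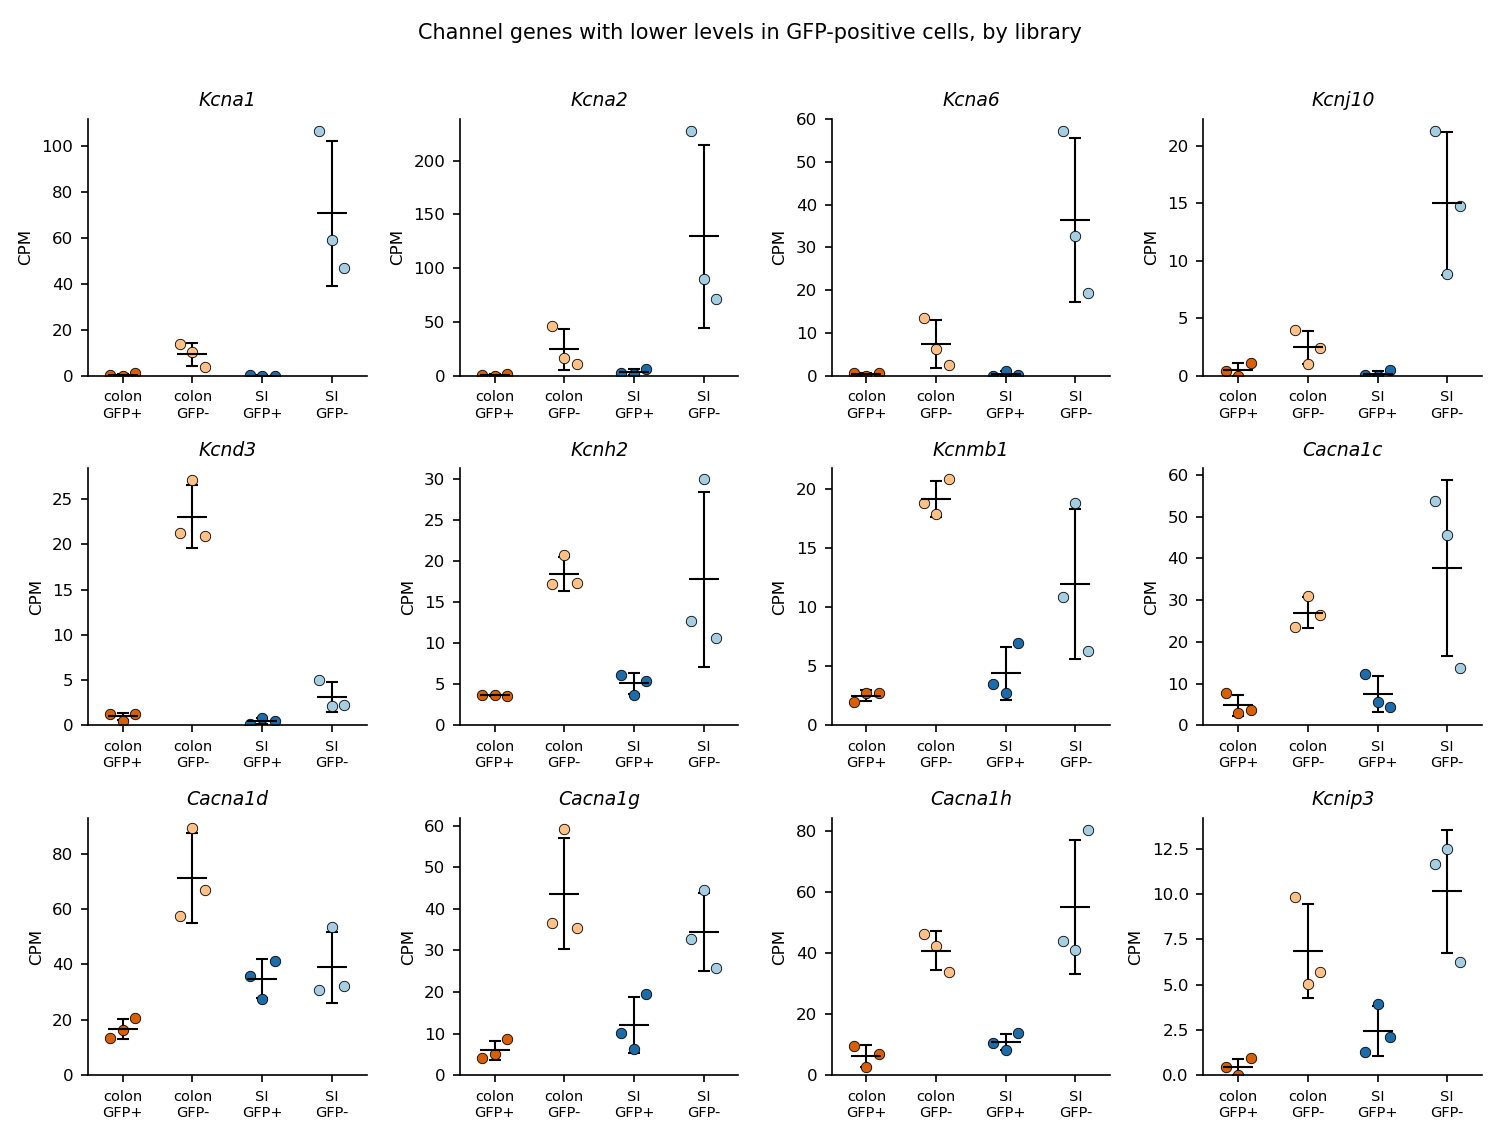
CPM by library (points, linear axis from 0) with mean and SD for 12 channel genes, in colon and small intestine (SI) by GFP gate. The GFP-positive libraries lie below the GFP-negative ones in most panels, while Cacna1d separates the gates in the colon and overlaps in the small intestine.

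Pore-forming Nav channels had 4 of 10 genes tested, and none was called in the small intestine by edgeR or by DESeq2's Wald test, with 1 at an unadjusted p under 0.05 by edgeR. Scn7a, the Nax channel that senses extracellular sodium and does not open with voltage, led the class in every group. It stood at 59.8 ± 7.48 TPM in GFP-positive and 52.9 ± 7.96 TPM in GFP-negative cells of the colon, and at 107 ± 39.96 and 144 ± 57.4 TPM in those of the small intestine, and its log2 fold changes between gates were 0.32 in the colon and -0.29 in the small intestine (adjusted p = 0.616 and 0.614).

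The neuronal channel gene Scn3a averaged 21.9 ± 4.86 CPM in GFP-positive and 0.305 ± 0.197 CPM in GFP-negative cells of the colon, without passing the test (log2 fold change 6.12, SE 1.74, adjusted p = 0.0595), though DESeq2's Wald test called it, as did the fit with the replicate block (adjusted p = 0.0137).

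Sodium channel beta subunits are single-span partners that speed gating and bind neighbouring cells. Scn3b (ENSMUSG00000049281, chr9:40269217-40291618, plus strand), which binds the pore without a disulfide bond, rose in both tissues. Scn3b measured 48.4, 51.6 and 49.1 CPM in GFP-positive against 1.61, 0.457 and 0.253 CPM in GFP-negative cells of the colon. Its values in the small intestine were 14.8, 36.2 and 7.32 CPM in GFP-positive against 2.77, 2.09 and 0.482 CPM in GFP-negative cells. Its log2 fold change was 6.03 (SE 0.79, adjusted p = 0.000762) in the colon and 3.40 (SE 0.69, adjusted p = 0.00841) in the small intestine. Like Kcnk5, Scn3b was highest in replicate 2 and lowest in replicate 3 of the GFP-positive small intestine, the order of the lymphatic, pan-endothelial and blood endothelial sums. In GFP-positive cells of the colon the lymphatic sum was 20070, 22010 and 18840 CPM in replicates 1 to 3, while Scn3b was lowest in replicate 1. Of the 9 lymphatic markers 8 rose in the colon and 7 in the small intestine, none was at 0 in a group, and their part in these results was not tested.

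The disulfide-linked subunits Scn2b and Scn4b fell in the small intestine. Scn2b fell by 3.40 on the log2 scale in the small intestine (adjusted p = 0.0379, and 0.0615 with the replicate block), a call lost without GFP-positive replicate 1 or 2 or GFP-negative replicate 1 or 3. Scn4b had no count in any of the 6 GFP-positive libraries, against 0.253 to 1.03 CPM in GFP-negative cells of the colon and 1.45 to 12.02 CPM in those of the small intestine. Against a floor of 3 counts over the GFP-positive group it was at least 72.0-fold lower in the small intestine (adjusted p = 0.00675) and at least 5.42-fold lower in the colon, where the test was not passed (adjusted p = 0.0687).

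**Figure D4:**
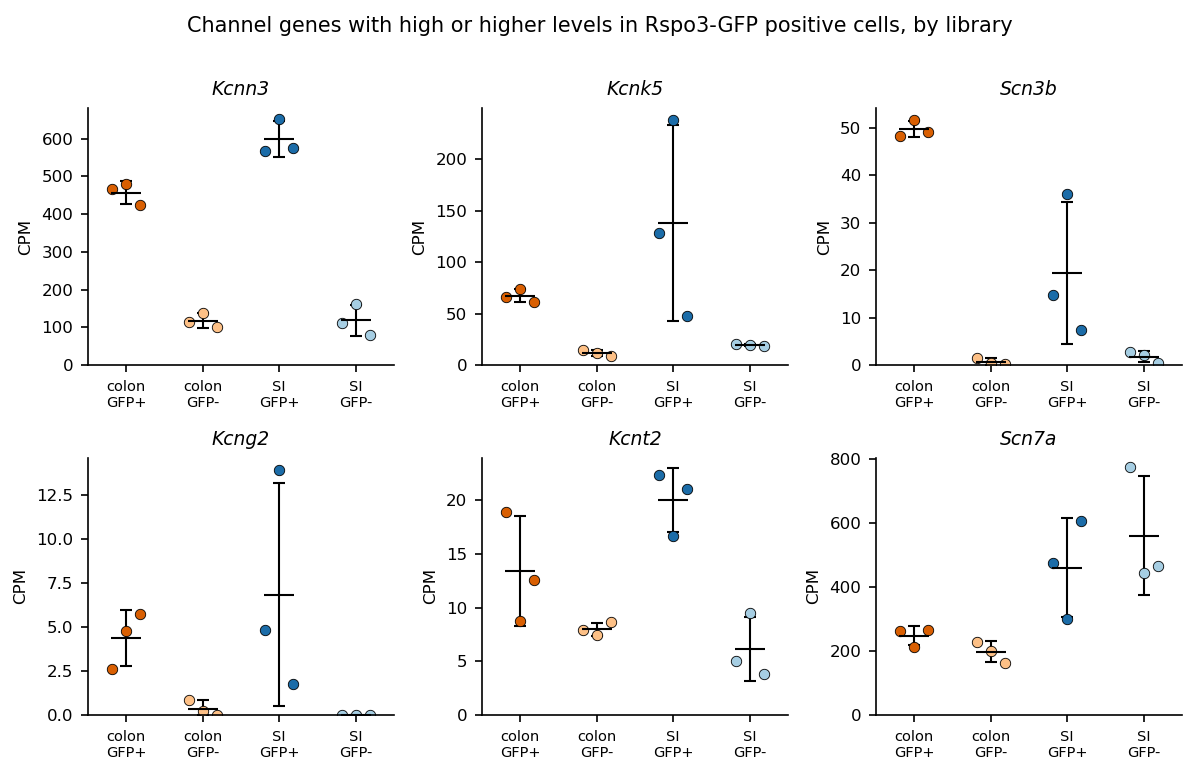
CPM by library (points, linear axis from 0) with mean and SD for 6 channel genes, in colon and small intestine (SI) by GFP gate. Kcnn3, Kcnk5 and Scn3b lie higher in GFP-positive cells of both tissues, and Scn7a is shown as the class leader whose gates overlap.

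HCN channels, which carry the pacemaker current, had 2 of 4 genes tested. In the colon none was called by edgeR or DESeq2's Wald test, and 0 had an unadjusted p under 0.05 by edgeR. In the small intestine 0 rose and 2 fell. Hcn2 averaged 0.365 ± 0.234 CPM in GFP-positive and 4.56 ± 1.51 CPM in GFP-negative cells of the small intestine (log2 fold change -3.56, SE 0.75, adjusted p = 0.00861). Hcn4 averaged 0.572 ± 0.519 CPM in GFP-positive and 7.35 ± 4.39 CPM in GFP-negative cells (log2 fold change -3.63, SE 1.00, adjusted p = 0.0347, and adjusted p = 0.0539 with the replicate block), a call lost without GFP-positive replicate 2 or 3 or GFP-negative replicate 1. Hcn4 is also 1 of the 6 markers used here for interstitial cells of Cajal, whose sum was 202 to 324 CPM in GFP-positive and 264 to 331 CPM in GFP-negative cells of the small intestine. Gja1 held 87.9% of that sum in GFP-positive and 70.5% in GFP-negative cells. By gene, 2 of the 6 fell there, Hcn4 itself and Ano1 (log2 fold change -2.20, SE 0.54, adjusted p = 0.022). Kit (log2 fold change -2.21, adjusted p = 0.102), Etv1 (-0.76, 0.389), Gja1 (0.13, 0.798) and Thbs4 (1.22, 0.54) did not pass the test. The median log2 fold change of the 6, with Hcn4 counted in, was -1.48. The part of these cells in the Hcn4 result was not tested.

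The GFP effects of the 2 tissues were then compared with each other. The interaction called 1 channel gene higher and 1 lower (Cacna1d) in the colon than in the small intestine, while 2.06% of all genes were called (1.16% higher, 0.895% lower), and 15 of the 70 had an unadjusted p under 0.05 by edgeR. Kcnab2 (log2 difference 4.60, SE 1.13, adjusted p = 0.0588) and Kcna1 (log2 difference 5.15, SE 1.29, adjusted p = 0.0682) came next among the genes described here and did not pass. The share of called channel genes was 2.86%, near that of all genes and the 2.45% of protein-coding genes. With single libraries left out, 0 to 2 were called higher and 0 to 3 lower.

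Between tissues, 0 of the 70 genes rose and 4 fell in GFP-positive cells of the colon relative to GFP-positive cells of the small intestine. Of all genes 4.57% were called (2.75% higher, 1.81% lower), and of protein-coding genes 5.33%. The counts of channel genes are from edgeR, which gave 19 of them an unadjusted p under 0.05. The number higher was 1 with DESeq2's size factors, with no filter on low counts, with DESeq2's Wald test, with the 2 groups alone and with the replicate block, and 3 with limma on the log2(TPM + 1) scale. In each of these fits Kcne4 was among them. The number that fell was 2 without replicate 1 of the small intestine or without any of the 3 colon replicates. The split of higher to lower calls was 1 and 4 with DESeq2's size factors, and 3 and 1 with limma, which changes the unit and the test together. Kcne4 measured 21.98, 26.7 and 32.6 CPM in GFP-positive cells of the colon against 5.32, 11.9 and 5.197 CPM in those of the small intestine, without overlap (log2 difference 1.85, SE 0.50, adjusted p = 0.0575 by edgeR). In GFP-negative cells 1 rose and 6 fell in the colon, and limma gave 4 and 4. By edgeR 4.21% of all genes were called there (2.20% higher, 2.01% lower), and 4.91% of protein-coding genes. The median log2 difference of the 70, colon minus small intestine, was -0.48 in GFP-positive and -0.86 in GFP-negative cells, beside -0.02 and -0.06 over all genes. The libraries did not overlap for 6 genes higher and 17 lower in the GFP-positive colon (24.7% of all genes), and for 5 higher and 21 lower in the GFP-negative colon (22.6% of all genes).

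In GFP-positive cells Kcnab1, a beta subunit of Kv1 channels, fell in the colon (log2 difference -4.44, SE 1.12, adjusted p = 0.0413), as did Cacna1d (log2 difference -1.06, SE 0.27, adjusted p = 0.0455). Each of these calls held in 1 of 6 fits without 1 library, with a highest adjusted p of 0.168 for Kcnab1 and 0.21 for Cacna1d. Both were lost with limma, and that of Kcnab1 also with the replicate block (adjusted p = 0.0605). In GFP-negative cells Kcnd3 rose in the colon (log2 difference 2.86, SE 0.51, adjusted p = 0.01). There Scn7a (log2 difference -1.50, SE 0.29, adjusted p = 0.0137), Kcna1 (log2 difference -2.93, SE 0.61, adjusted p = 0.0234) and Kcnab2 (log2 difference -3.50, SE 0.83, adjusted p = 0.0367) fell. Kcnab2 measured 0.733, 2.51 and 1.65 CPM in GFP-negative cells of the colon against 6.97, 6.06 and 43.6 CPM in those of the small intestine, where the high value is again that of replicate 3, the library with the leukocyte markers. Its call held in 2 of 6 fits without 1 library and was lost with limma (adjusted p = 0.179), with the 2 groups alone (0.0941) and with the replicate block (0.0662). The call of Scn7a was lost with limma (adjusted p = 0.185) and that of Kcna1 with no filter on low counts (0.0732). Scn7a measured 228, 201 and 163 CPM in GFP-negative cells of the colon against 772, 442 and 466 CPM in those of the small intestine. In GFP-negative cells the number that fell rested on single libraries: it was 0 without replicate 3 and 1 without replicate 2 of the GFP-negative colon, and 3 without replicate 1 of the GFP-negative small intestine. Glial markers were lower in the GFP-negative colon as well, at 49.3 to 129 CPM against 216 to 535 CPM in the GFP-negative small intestine. Epithelial markers were higher in the GFP-positive colon, at 379 to 2017 CPM against 12.6 to 18.1 CPM in the GFP-positive small intestine. Neither was tested as a part of the channel differences.

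**Figure D5:**
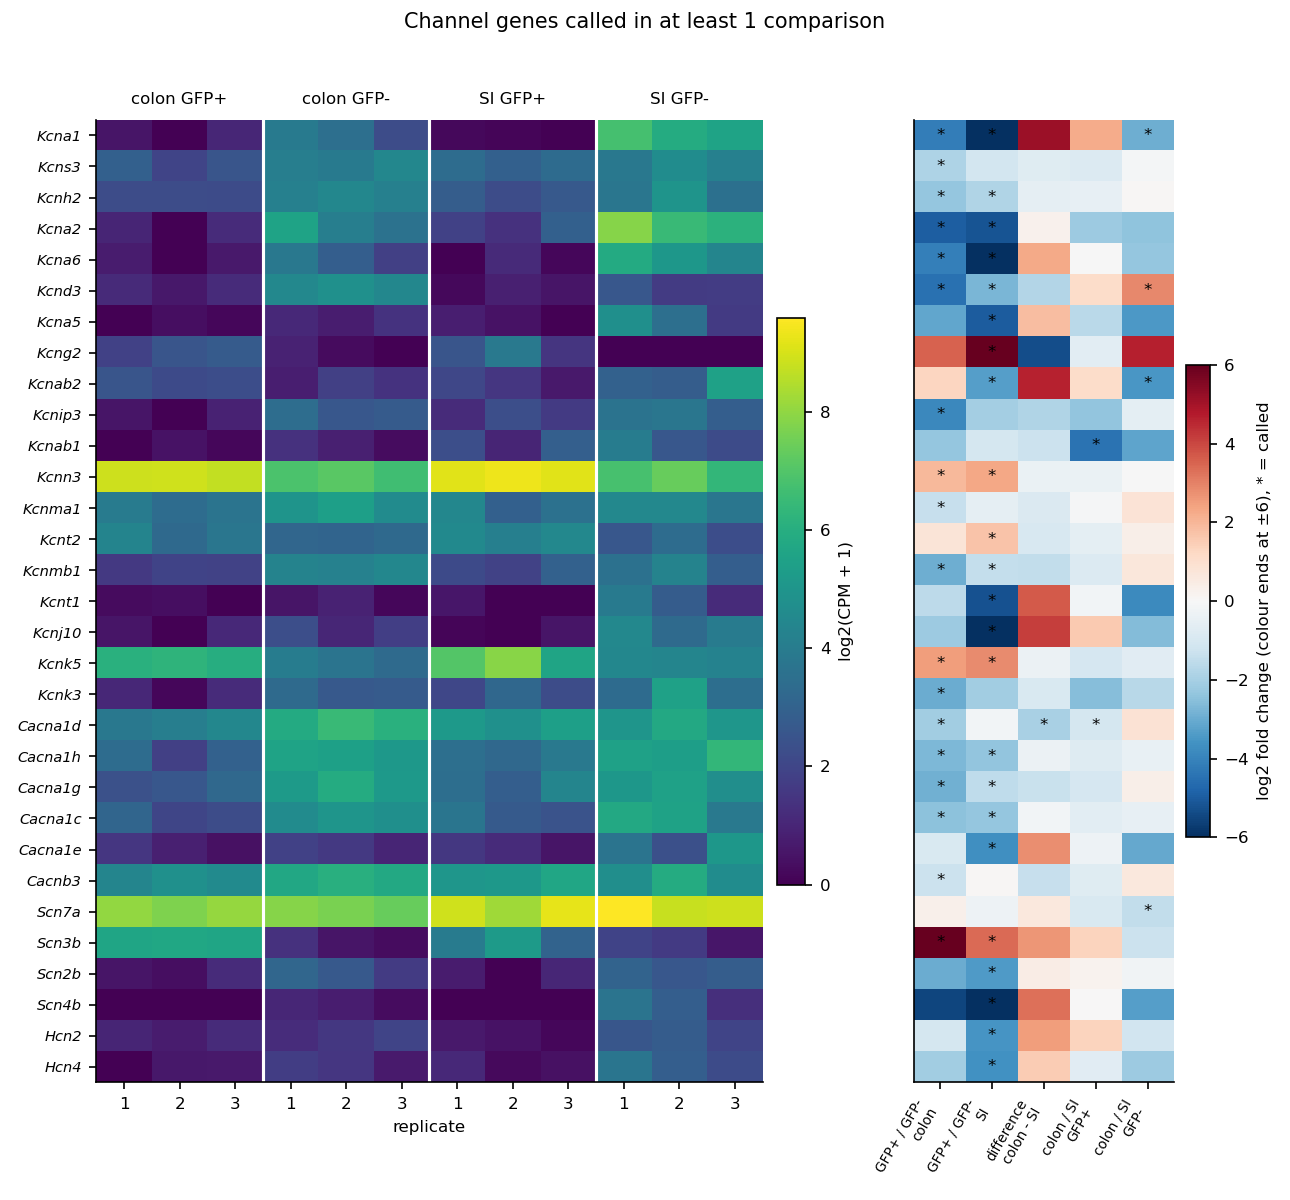
Left, level of 31 of the 35 channel genes called in at least 1 comparison, as log2(CPM + 1), in the 12 libraries of colon and small intestine (SI). Right, their log2 fold changes in the 5 comparisons, with called values starred and colours ending at ±6; Kcnn3, Kcnk5 and Scn3b were called higher in GFP-positive cells of both tissues.

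Of the 70 tested genes 35 were called in at least 1 comparison and 35 in none. Among those called in none were well-expressed genes: Cacna1a, the P/Q-type channel, averaged 13.97 ± 2.66 CPM in GFP-positive and 11.8 ± 4.17 CPM in GFP-negative cells of the colon and 14.2 ± 7.19 and 16.1 ± 2.46 CPM in those of the small intestine. Cacng7, a gamma-family subunit, averaged 8.64 ± 1.097 CPM in GFP-positive and 27.7 ± 2.505 CPM in GFP-negative cells of the colon, with no overlap and an adjusted p of 0.0637. The tandem-pore gene Kcnk6 averaged 10.5 ± 0.633 and 10.5 ± 2.63 CPM in GFP-positive and GFP-negative cells of the colon and 15.2 ± 3.31 and 12.9 ± 4.17 CPM in those of the small intestine. The 56 genes that did not pass the filter had at most 203 counts over the 12 libraries. Exons of 11 of the 34 channel genes described overlapped another annotated gene, 10 of them on the opposite strand, and apart from Chdh these neighbours averaged under 1 CPM.

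Channels and their partners outside the rule were listed too, 42 genes of which 37 were tested. In the colon 4 rose and 5 fell, and in the small intestine 2 rose and 7 fell. That is 24.3% called in each tissue, while 8.69% of all genes tested were called in the colon and 10.9% in the small intestine. Of protein-coding genes tested, 10.1% and 12.7% were called. The stretch-activated channel gene Piezo2 averaged 347 ± 30.9 CPM in GFP-positive and 44.9 ± 10.8 CPM in GFP-negative cells of the colon, and 316 ± 4.48 and 28.3 ± 6.71 CPM in those of the small intestine, and rose in both. Its log2 fold change was 2.95 (SE 0.23, adjusted p = 3.97e-05) in the colon and 3.48 (SE 0.23, adjusted p = 1.53e-05) in the small intestine. Ank3, a scaffold that anchors sodium channels, fell in the small intestine (log2 fold change -2.83, SE 0.46, adjusted p = 0.00255), as did Itpr3, a receptor that releases stored calcium (log2 fold change -1.49, SE 0.27, adjusted p = 0.00376).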

How the data were processed

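Estimated counts per gene and log2(TPM + 1) values were deposited for 12 libraries. Per the submitters' processing notes, Salmon 1.1.0, R 3.6.1 and the genome build mm10 were used. The labels' protocols name column-purified total RNA and removal of ribosomal RNA. The deposited expected counts are 100% whole numbers, so they had been rounded, and whether counting used strand is not given in the sources used here. The authors' log2 values are relative to all genes, so TPM was rescaled here to a protein-coding total of 1000000 where levels of genes were compared. Gene symbols were matched to 31974 of 32052 gene IDs. Annotation held 137 protein-coding genes of the rule, of which 11 are not analysed here.

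Counts were fitted with edgeR 4.0.16 (R 4.3.3; quasi-likelihood, robust, TMM, filterByExpr with a minimum count of 10) in 1 model of 4 group means over 12 libraries, and p-values were adjusted by the Benjamini-Hochberg method over 16757 genes, with a threshold of 0.05. CPM was divided by TMM-scaled library totals. The 5 comparisons were: GFP-positive against GFP-negative in each tissue, the difference of these effects, and colon against small intestine in each gate. Alternatives were DESeq2 1.42.0 (size factors, Wald test), limma 3.58.1 on the log2 values, no filter, the compared groups alone, the replicate number as a block, and each library left out. The edgeR steps were tested on simulated data with known fold changes. Same-numbered gates of a tissue share a sample name in the labels (replicate 1 of the colon is named by tissue alone), whose meaning the labels do not give. They deviated together in the small intestine (correlations of deviations from the group means 0.323, 0.179 and 0.166), and the values in the colon were 0.009, 0.047 and 0.09. Replicate pairs of a group differed beyond sampling noise.

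The genes, classes and marker lists were chosen with earlier results of these data known. Genes are described with values in every library where they led their class per length, or were called in at least 1 comparison at a mean of at least 2 CPM (up to 30, by adjusted p). Other called genes are given by fold and adjusted p, tested genes that were not called may be named with values, and examples outside the rule are from the 4 with the smallest adjusted p. Results of some genes, and of the class they dominate, are not reported here. Library totals limit genes of a few CPM, and floors and bounds cover counting error only.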

Additional observations from a re-analysis of the deposited data

Results flagged for a closer look

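The effect of the GFP gate on Cacna1d differed between the tissues by the interaction term of the edgeR fit. The difference, colon minus small intestine, was -1.93 on the log2 scale (SE 0.38, adjusted p = 0.0255), from an effect of -2.09 in the colon and -0.16 in the small intestine. Over the fits that left out 1 library each, the Cacna1d difference was called in 5 of 12, and the sign held in all of them.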

How the results depend on the processing

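Of 48 called results of the named channel genes, 27 were kept in every fit that left out 1 library, 18 in every other alternative and 17 in all, and 0 results changed sign once called. In the small intestine the number that fell was 8 with limma and 11 with the compared groups alone (19 as reported). In the colon DESeq2's Wald test called 8 higher and the compared groups alone 9 (5 as reported), and limma called 8 lower (16 as reported). For the difference between tissues 2 were higher without a filter, 4 with the Wald test and 0 with limma, and 0 were lower with the replicate block. Between tissues in GFP-positive cells, 1 was higher with DESeq2's size factors, without a filter, with the Wald test, with the compared groups alone and with the replicate block, and 3 with limma, while 8 were lower with the Wald test and 1 with limma. In GFP-negative cells 2 were higher with the Wald test and 4 with limma, and 14 were lower with the Wald test. Leaving out 1 library gave, in the small intestine, 6 to 7 higher and 11 to 18 lower, and in the colon 4 higher in every fit and 10 to 13 lower. The same gave 0 to 2 higher and 0 to 3 lower for the difference between tissues. It gave 0 to 1 higher and 2 to 5 lower in GFP-positive cells between tissues, and 0 to 3 higher and 0 to 7 lower in GFP-negative cells. The cause of these shifts was not tested. Protein-coding genes held 4.63% to 8.07% of the deposited TPM of a library. Deposited TPM summed over the channel genes averaged 57.9 and 49.9 in GFP-positive and GFP-negative cells of the small intestine. In the colon the averages were 60.05 and 46.2. On the log2 scale, Kcnd3 of the small intestine changed by -0.07 with limma and -2.72 with edgeR, and Hcn4 by -0.15 and -3.63. The part of the 1 added to each TPM in the lost calls was not tested. Relative to the other scalings, limma moved the median of all genes to 0.13 in GFP-positive and 0.19 in GFP-negative cells between tissues, and the fit without a filter moved that of the difference to 0.13. With the replicate block 6 rose and 14 fell in the colon, and the block changed no call of a named gene in either GFP comparison beyond those given beside their results. Without the rescaling to protein-coding genes, 43 class levels moved by more than the spread between replicates. Genes under about 1 CPM rest on a few counts in a library.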

Other observations

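Channel genes that neighbour each other on a chromosome were listed within 500 kb. On chromosome 6 Kcna5, Kcna1 and Kcna6 lie in a row, with gaps of 105.0 and 61.9 kb, and all fell in GFP-positive cells of the small intestine. On chromosome 9 Scn2b and Scn4b lie 8.3 kb apart and both fell there.

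Some genes under the filter had no count in 1 gate. Kcnh8, a Kv channel of the ether-a-go-go family, had 0 counts in the GFP-positive and 56 in the GFP-negative libraries of the small intestine. By replicate the 56 were 44, 5 and 7. Pooled over the gate this is at least 23.7-fold lower when the empty gate is set at 3 counts. The T-type gene Cacna1i had 0 and 28 counts in GFP-positive and GFP-negative cells of the small intestine, at least 11.9-fold lower when pooled. All 28 lay in GFP-negative replicate 3, the library with the leukocyte markers. Replicates 1 and 2 of that gate had 0, so the bound rests on 1 library and does not separate the gates. Kcna4, a Kv channel of the Shaker family, had 0 counts in GFP-positive and 25 in GFP-negative cells of the colon, at least 9.03-fold lower when pooled. By replicate the 25 were 0, 14 and 11.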
